A study of Homo sapiens with 6 samples.

Results

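The MYC, MAX and MXD network is the set of transcription factors that bind DNA as pairs through MAX or its relative MLX. The genes were taken by symbol: MYC, MAX, MXD1, MXD3, MXD4, MXI1, MNT, MLX, MLXIP and MGA, 10 of the 26485 genes in the table, and all 10 had enough counts to be tested. They were measured as poly(A) RNA in 6 libraries of HCC38, a triple-negative breast cancer line that the labels call ductal and basal-like. Cells of 3 libraries had been transfected with 1 CIP2A siRNA each, named siCIP2A#1, siCIP2A#2 and siCIP2A#3. The 3 controls were cells transfected with the non-targeting siRNA SCR#2, cells transfected with SCR#3, and a mock that one label gives as transfection reagent alone and the design text as not transfected. Whether each library is a culture of its own is not stated, so every p-value rests on spread among all or part of these 6 libraries that may be technical. Each siRNA has 1 library, and the time between transfection and harvest is not given in the sources used here.

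MYC pairs with MAX to bind E-box sequences and raise transcription of genes for ribosome production, nucleotide synthesis and the cell cycle. MXD1, MXD3, MXD4, MXI1 and MNT pair with MAX at the same sequences and recruit SIN3 and histone deacetylases, which lowers transcription, while MLX pairs with MLXIP, the glucose-responsive factor MondoA. CIP2A is known as an inhibitor of the phosphatase PP2A that slows the loss of MYC protein. The RNA counts here measure none of these proteins or their phosphorylation.

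The target was lowered by every siRNA. In TMM-normalised CPM (counts scaled to a common library size), CIP2A was 16.3 (siCIP2A#1), 45.8 (siCIP2A#2) and 19.3 (siCIP2A#3), against 98.9 (mock), 99.8 (SCR#2) and 103 (SCR#3). Set singly against the controls by edgeR's quasi-likelihood test, siCIP2A#1 had a CIP2A log2 difference of -2.62 (edgeR adjusted p = 2.41e-04), siCIP2A#2 of -1.13 (edgeR adjusted p = 0.0165) and siCIP2A#3 of -2.38 (edgeR adjusted p = 4.68e-04). As 1 group the siRNAs did not pass for CIP2A (log2 difference -1.90, SE 0.30, edgeR adjusted p = 0.708), and without siCIP2A#2 it passed, at -2.50 (edgeR adjusted p = 1.20e-05). Library totals ran from 13995187 to 18161451 counts, so that 3 counts, taken as the detection floor, equal 0.162 to 0.218 CPM (counting error only). Of the markers of the labelled basal-like epithelium, EGFR stood at 73.0 to 84.4 CPM, whereas KRT5 and KRT17 reached at most 1 count and KRT14 had 0 counts in every library. The simple-epithelium keratin KRT8 stood at 252 to 439 CPM, and EPCAM and CDH1 reached 0.747 and 1.22 CPM. Of the receptor genes listed as low in triple-negative lines, ESR1 and PGR reached 6 and 2 counts, whereas ERBB2 stood at 48.3 to 74.4 CPM. The leukocyte gene PTPRC and the endothelial gene CDH5 had 0 counts in every library, while PECAM1, which endothelium also expresses, stood at 3.00 to 6.22 CPM. In bulk RNA, fewer cells that express a gene and less RNA per cell cannot be told apart.

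MYC had the highest level per length of the network. In CPM per kilobase of exons it averaged 44.4 over the 6 libraries, with a range of 39.6 to 54.4. MLX followed at 18.5 (range 16.1 to 20.4) and MAX, the shared partner, at 13.8 (range 12.8 to 15.3), and the ranges of MYC, MLX and MAX did not overlap. MLXIP at 11.9, MXD4 at 11.8 and MGA at 9.09 came next, and MLXIP and MXD4, as well as MXD4 and MGA, overlapped over libraries, as did MAX and MLXIP. Of the other repressors, MNT averaged 6.59, MXI1 6.24, MXD1 4.25 and MXD3 2.68 CPM per kilobase. MNT and MXI1 overlapped, and they changed places when the longest coding transcript was taken as the length, while MXD1 and MXD3 did not overlap. The other paralogs were low: MYCN had 0 counts in every library, MYCL had at most 7 counts, and MLXIPL, the ChREBP gene, stood at 1.97 to 2.92 CPM and did not pass the test in any comparison.

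Promoters of the network genes are shown because the E-box letters CACGTG are the sequence these factors bind. Windows of 300 bases (250 before and 50 after a start site, from RefSeq, GRCh38.p14) were matched for 9 of the genes, 14 windows in all. MYC had no window and was not searched. CACGTG, which reads the same on both strands, was in 3 of the 14 windows (21.4%), those of MXD4, MNT and MLX. It was in 7.26% of all 35116 windows and in 38.9% of the 36 windows found for genes listed as activated by MYC. A match is a description of letters and not a measured binding site. The windows follow on the strand of the gene, 5′ to 3′, with the E-box in capitals.
MXD4 (chr4:2262060-2262359, minus strand, E-box from position -238): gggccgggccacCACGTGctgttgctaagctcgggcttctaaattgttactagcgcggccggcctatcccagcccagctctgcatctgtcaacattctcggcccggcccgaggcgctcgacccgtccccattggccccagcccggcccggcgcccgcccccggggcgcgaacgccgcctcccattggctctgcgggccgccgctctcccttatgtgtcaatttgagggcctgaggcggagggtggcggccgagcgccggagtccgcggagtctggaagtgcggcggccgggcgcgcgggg
MNT (chr17:2401011-2401310, minus strand, E-box from position -193): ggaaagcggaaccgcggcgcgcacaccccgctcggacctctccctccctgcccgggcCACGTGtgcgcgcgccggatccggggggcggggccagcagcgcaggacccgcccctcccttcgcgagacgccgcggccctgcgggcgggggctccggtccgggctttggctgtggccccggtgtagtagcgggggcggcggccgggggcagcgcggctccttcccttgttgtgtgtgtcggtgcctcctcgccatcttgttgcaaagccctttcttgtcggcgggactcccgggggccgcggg
MLX (chr17:42566850-42567149, plus strand, E-box from position -50): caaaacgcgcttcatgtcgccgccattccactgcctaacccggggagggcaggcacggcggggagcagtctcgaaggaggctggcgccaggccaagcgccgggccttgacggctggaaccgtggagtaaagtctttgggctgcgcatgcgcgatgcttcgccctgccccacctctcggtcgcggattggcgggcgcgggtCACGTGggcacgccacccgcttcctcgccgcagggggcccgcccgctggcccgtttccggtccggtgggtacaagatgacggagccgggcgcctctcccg

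The first comparison set the 3 CIP2A siRNA libraries against the 3 controls, to ask whether lowering CIP2A moves the RNA of the network. None of the 10 genes passed edgeR's quasi-likelihood test, and 0 had an unadjusted p under 0.05. Over all 13562 genes tested the test called 0%, with 2.72% at an unadjusted p under 0.05, and DESeq2 called 3 genes, of which 0 were in the network. Of the 10 genes, 8 stood above 0 and 2 below, with a median log2 difference of 0.04, while 49.7% of all genes stood above 0 with a median of -0.0011. The count above 0 rested on single libraries: it was 4 of 10 without SCR#3 and 5 of 10 without SCR#2, siCIP2A#2 or siCIP2A#3, and 8 of 10 without siCIP2A#1 or the mock. Single differences ran from -0.16 to 0.15 (log2), each with an edgeR adjusted p of 0.999.

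**Figure D1:**
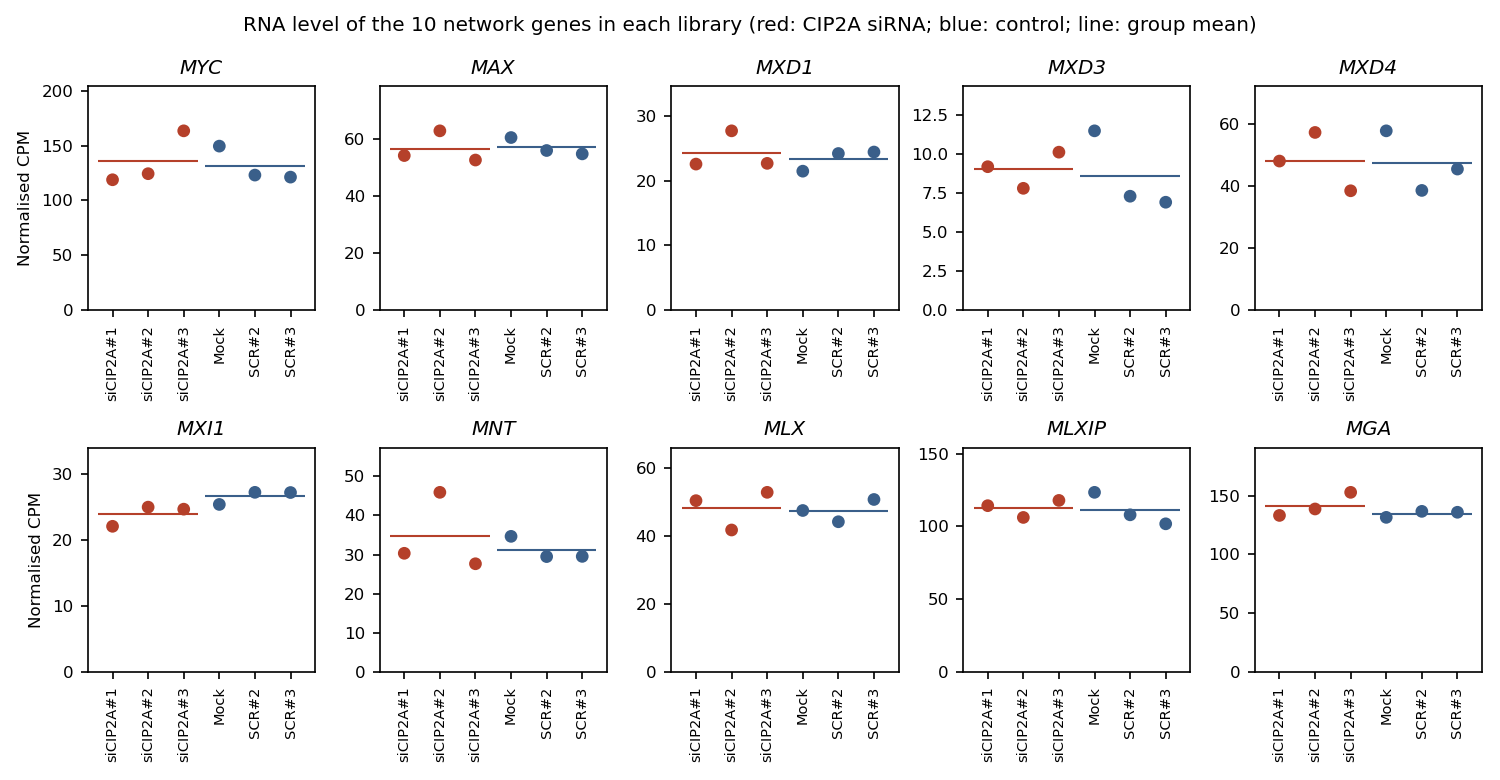
TMM-normalised CPM of each network gene in each library, with the 3 CIP2A siRNA libraries in red left of the 3 controls in blue and a line at each group's mean; axes start at 0. MYC is highest with siCIP2A#3 (163 CPM) and in the mock (149 CPM), MNT is highest with siCIP2A#2 (45.9 CPM), and MXI1 is the 1 gene whose groups do not overlap.

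MYC, the activating partner of MAX, is encoded on chromosome 8. Its CPM were 119 (siCIP2A#1), 124 (siCIP2A#2) and 163 (siCIP2A#3), against 149 (mock), 123 (SCR#2) and 121 (SCR#3). The groups overlapped, with siCIP2A#3 and the mock above the other 4 libraries. The means were 136 ± 24.3 CPM with the siRNAs and 131 ± 15.8 CPM in the controls (SD, n = 3 each). The log2 difference was 0.05 (SE 0.13, edgeR adjusted p = 0.999), with a 95% interval of 0.849-fold to 1.26-fold. Exact permutation of the 6 libraries gave a two-sided p = 0.80, where 3 against 3 can give no less than 0.10. The difference was -0.11 without siCIP2A#3 and 0.15 without the mock. CIP2A was lower with siCIP2A#1 and siCIP2A#3 than with siCIP2A#2, and these 2 libraries had the lowest and the highest MYC level of the 6.

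MAX, the partner that MYC, the MXD proteins, MNT and MGA share, lies on chromosome 14 from 65006101 to 65102695 (gene coordinates here are RefSeq's, GRCh38.p14). Its CPM were 54.2 (siCIP2A#1), 62.8 (siCIP2A#2) and 52.6 (siCIP2A#3), against 60.5 (mock), 55.9 (SCR#2) and 54.8 (SCR#3). Its groups overlapped and its log2 difference was -0.01 (SE 0.10), with an interval of 0.846-fold to 1.16-fold.

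Among the repressing partners of MAX, MXI1 was the 1 gene of 10 whose groups did not overlap. It lies on chromosome 10 from 110207605 to 110287365, and its CPM were 22.1 (siCIP2A#1), 25.0 (siCIP2A#2) and 24.7 (siCIP2A#3), against 25.4 (mock) and 27.2 (SCR#2 and SCR#3 alike). All siRNA libraries lay below all controls, as they did for 4.38% of all genes tested, and 0 network genes lay above, against 3.26% of all genes. The log2 difference of MXI1 was -0.16 (SE 0.11, edgeR adjusted p = 0.999), and it lay between -0.19 and -0.10 when 1 library was left out.

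MNT, a MAX partner found in growing as well as resting cells, lies on chromosome 17 from 2384073 to 2401060. Its CPM were 30.3 (siCIP2A#1), 45.9 (siCIP2A#2) and 27.6 (siCIP2A#3), against 34.7 (mock) and 29.5 (SCR#2 and SCR#3 alike). The siCIP2A#2 library lay above the other 5, and siCIP2A#3 below all of them. The 3 siRNAs as 1 group differed from the controls by 0.15 in log2 (SE 0.17), and by -0.11 without siCIP2A#2. An antisense gene annotated on the other strand shares 21.3% of the exon bases of MNT, and as the strand setting of the counting is not given in the sources used here, reads of the pair may not have been told apart.

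The MXD genes encode MAX partners, of which those of MXD1 and MXD4 are best known from cells that leave the cell cycle. MXD4 (chromosome 4, 2247432 to 2262109) had 48.1 (siCIP2A#1), 57.4 (siCIP2A#2) and 38.5 (siCIP2A#3) CPM, against 57.9 (mock), 38.6 (SCR#2) and 45.5 (SCR#3). The siRNA and control ranges were nearly the same, and the log2 difference was 0.02 (SE 0.17). MXD1 (chromosome 2, 69915109 to 69942945) had 22.6 (siCIP2A#1), 27.7 (siCIP2A#2) and 22.7 (siCIP2A#3) CPM, against 21.5 (mock), 24.2 (SCR#2) and 24.4 (SCR#3). Its highest value was with siCIP2A#2, its lowest in the mock, and the log2 difference was 0.06 (SE 0.13). MXD3 (chromosome 5, 177305499 to 177312752) had the fewest counts of the network, 102 to 172 in a library. Its CPM were 9.20 (siCIP2A#1), 7.81 (siCIP2A#2) and 10.1 (siCIP2A#3), against 11.5 (mock), 7.31 (SCR#2) and 6.92 (SCR#3). The mock was highest, and the log2 difference was 0.09 (SE 0.20). PRELID1, a gene of mitochondrial lipid transport on the other strand, shares 22.2% of the exon bases of MXD3. PRELID1 had 119 (siCIP2A#1), 127 (siCIP2A#2) and 107 (siCIP2A#3) CPM, against 143 (mock), 121 (SCR#2) and 121 (SCR#3), so it too was highest in the mock, and its part in the MXD3 counts was not tested.

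MLX and MLXIP form the glucose-sensing branch. MLX (chromosome 17, 42567100 to 42573203) had 50.3 (siCIP2A#1), 41.7 (siCIP2A#2) and 52.7 (siCIP2A#3) CPM, against 47.4 (mock), 44.1 (SCR#2) and 50.6 (SCR#3). MLXIP (chromosome 12, 122078756 to 122147344) had 114 (siCIP2A#1), 106 (siCIP2A#2) and 118 (siCIP2A#3) CPM, against 123 (mock), 108 (SCR#2) and 102 (SCR#3). Both overlapped between groups, with log2 differences of 0.03 (SE 0.11) and 0.02 (SE 0.10). PSMC3IP on the other strand shares 29.7% of the exon bases of MLX and stood at 17.5 to 23.0 CPM. TXNIP and ARRDC4, the best known targets of MLXIP, were at or under the floor of 3 counts: TXNIP had 0 to 2 counts and ARRDC4 0 to 3 counts in a library. Of the other listed targets, the glycolytic genes HK2, PFKFB3 and LDHA had log2 differences of -0.20, -0.25 and -0.26 (edgeR adjusted p = 0.999 each).

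MGA, a large factor that pairs with MAX and sits in the variant polycomb complex PRC1.6, lies on chromosome 15 from 41621224 to 41769940. Its CPM were 133 (siCIP2A#1), 139 (siCIP2A#2) and 153 (siCIP2A#3), against 131 (mock), 137 (SCR#2) and 136 (SCR#3). Of the 10 genes MGA had the smallest fold between its highest and lowest library, 1.16, and MNT and MXD3 had the largest, 1.66 each. Its log2 difference was 0.07 (SE 0.09), with an interval of 0.921-fold to 1.20-fold.

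Each siRNA was then compared with the same 3 controls, which the 3 comparisons share. As each siRNA is 1 library, the spread in these tests is that of the 3 controls, none of which repeats a CIP2A siRNA. None of the network genes passed edgeR's test with siCIP2A#1, siCIP2A#2 or siCIP2A#3, where the test called 0.118%, 0.0737% and 0.00737% of all genes. At an unadjusted p under 0.05 there were 0 of 10 genes with siCIP2A#1, 1 with siCIP2A#2 and 1 with siCIP2A#3, against 9.95%, 11.6% and 8.22% of all genes, and DESeq2 called 0 network genes in each. The gene with siCIP2A#2 was MNT, with a log2 difference of 0.56 (SE 0.14, edgeR adjusted p = 0.251, range over the alternatives 8.47e-06 to 0.465). The gene with siCIP2A#3 was MYC, with a log2 difference of 0.32 (SE 0.13, edgeR adjusted p = 0.604, range over the alternatives 6.62e-05 to 1.00). With siCIP2A#1, which left the least CIP2A, MYC differed by -0.14 (SE 0.14) and the furthest of the 10 genes was MXI1 at -0.27 (SE 0.14, edgeR adjusted p = 0.571).

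**Figure D2:**
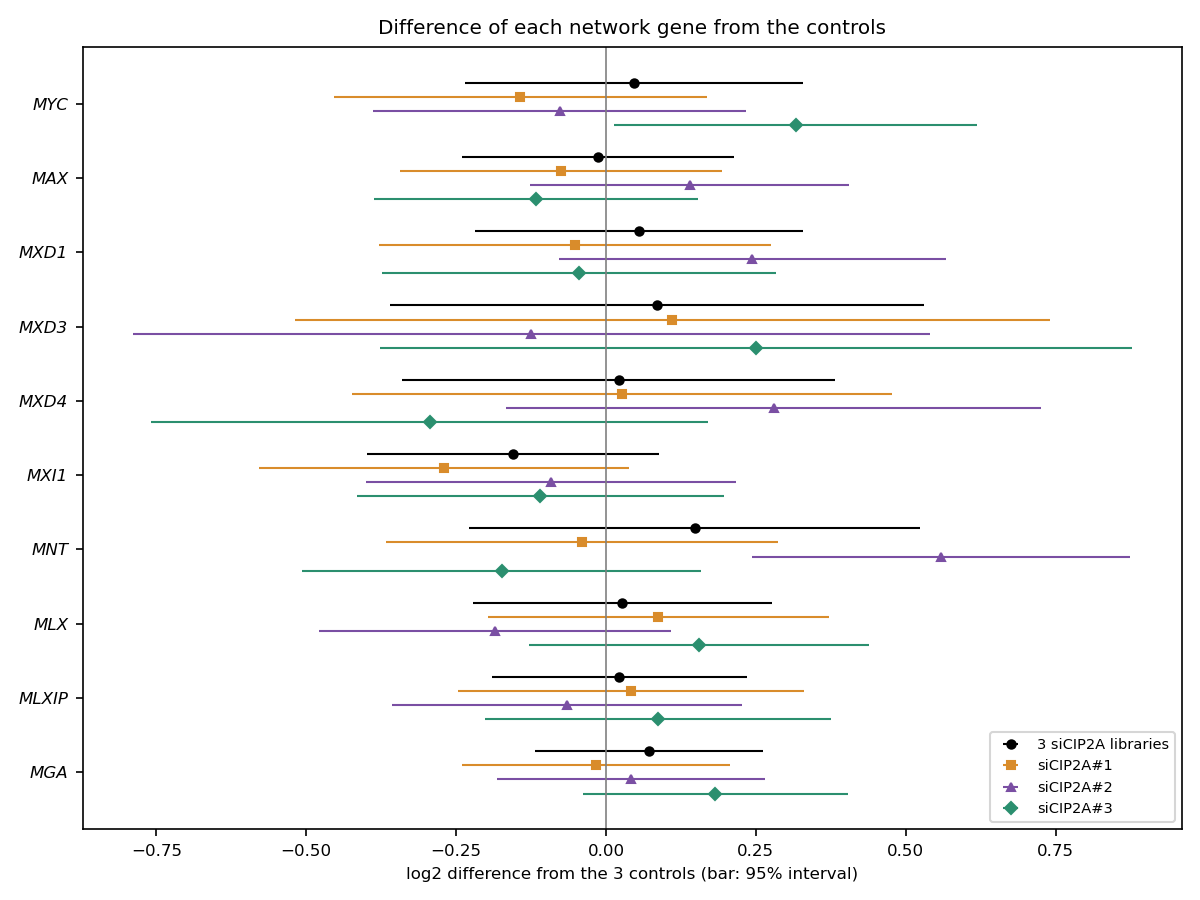
Log2 difference from the 3 controls for each network gene, for the 3 siRNA libraries together (black) and for each siRNA alone, with 95% intervals from edgeR's quasi-likelihood fit. The intervals of MNT with siCIP2A#2 (0.24 to 0.87) and MYC with siCIP2A#3 (0.01 to 0.62) do not reach 0, and neither difference passed after adjustment over all genes.

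Whether the differences of MNT and MYC passed depended on the mock, while their direction was the same with and without it. The SCR#2 and SCR#3 libraries were closer to each other (chi-square per degree of freedom 3.10 over genes) than either was to the mock (10.8 for SCR#2 and 8.58 for SCR#3). With the mock left out, 1 residual degree of freedom remained, and edgeR called 13.8% of 13782 genes with siCIP2A#1, 22.4% with siCIP2A#2 and 9.65% with siCIP2A#3. Calls in the network were then 0 of 10 with siCIP2A#1, 2 of 10 with siCIP2A#2 and 1 of 10 with siCIP2A#3. MNT stood at 0.64 (edgeR adjusted p = 8.47e-06) and MXD4 at 0.45 (edgeR adjusted p = 8.47e-04) with siCIP2A#2, and MYC at 0.42 (edgeR adjusted p = 6.62e-05) with siCIP2A#3, all higher than with the 2 non-targeting siRNAs. Against the shares of all genes, the network count was lower with siCIP2A#1 and about the same with siCIP2A#2 and siCIP2A#3.

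The controls themselves were compared, the 2 non-targeting siRNAs against the mock. The mock is 1 library, so the spread in this test is that among the 3 CIP2A siRNA libraries and between the 2 non-targeting ones. None of the 10 genes passed edgeR's test, which called 0% of all genes, and 1 had an unadjusted p under 0.05, against 6.31% of all genes; DESeq2 called 3 genes, of which 0 were in the network. The gene with the low unadjusted p was MXD3, with a log2 difference of -0.69 (SE 0.23, edgeR adjusted p = 0.703). MXD4 differed by -0.46 (SE 0.22), MYC by -0.29 (SE 0.18), MLXIP by -0.24 (SE 0.12) and MNT by -0.23 (SE 0.27). Of the 10 genes, 7 stood lower with the non-targeting siRNAs than in the mock, with a median of -0.18 where all genes had 0.0023. MYC cofactors lay low with the non-targeting siRNAs as well, 16 of 18 below 0 with a median of -0.22, as did 27 of 31 MYC-activated targets, with a median of -0.19.

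The siRNAs were also compared with each other, where the spread is again that of the 3 controls alone. No network gene passed in the 3 comparisons, where edgeR called 0.0147% of all genes for siCIP2A#2 against siCIP2A#1, 0.509% for siCIP2A#3 against siCIP2A#1 and 0% for siCIP2A#3 against siCIP2A#2. At an unadjusted p under 0.05 there were 1, 1 and 3 of the 10 genes in these comparisons, against 12.1%, 13.6% and 15.6% of all genes, and DESeq2 called 0 network genes in each. MNT differed by -0.73 (SE 0.17) between siCIP2A#3 and siCIP2A#2 (edgeR adjusted p = 0.165), with an interval of 0.456-fold to 0.793-fold. In the same comparison MYC differed by 0.39 (SE 0.17, edgeR adjusted p = 0.305) and MXD4 by -0.57 (SE 0.24, edgeR adjusted p = 0.310). MYC differed by 0.46 (SE 0.17, edgeR adjusted p = 0.285) between siCIP2A#3 and siCIP2A#1, and MNT by 0.60 (SE 0.17, edgeR adjusted p = 0.251) between siCIP2A#2 and siCIP2A#1.

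The balance of MYC and its repressing counterparts was described by the level of MYC over the summed levels of MXD1, MXD3, MXD4, MXI1 and MNT, all in CPM per kilobase. The ratio was 1.31 (siCIP2A#1), 1.13 (siCIP2A#2) and 1.93 (siCIP2A#3), against 1.43 (mock), 1.43 (SCR#2) and 1.33 (SCR#3). The siRNA libraries thus held the lowest and the highest ratio, and the 3 controls lay between them. The means were 1.45 ± 0.42 with the siRNAs and 1.40 ± 0.0566 in the controls (SD, n = 3 each). The repressors summed to 28.2 CPM per kilobase with siCIP2A#3, against 34.8 in the mock, the other library with a high MYC level. This ratio was given no test.

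**Figure D3:**
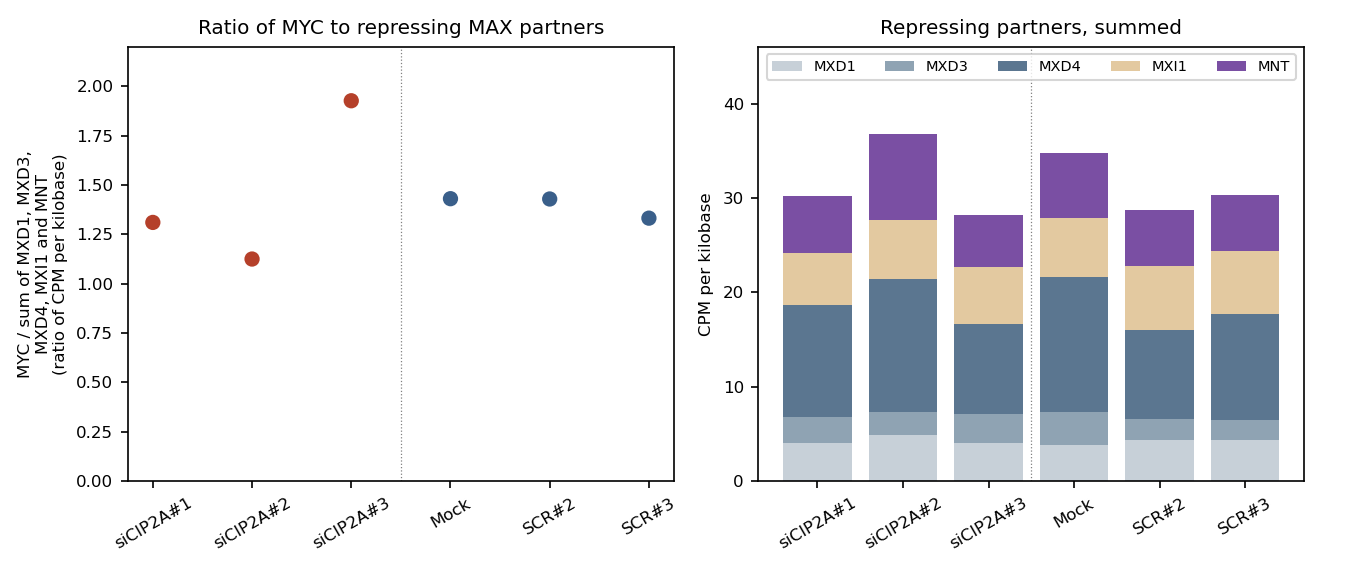
Left, ratio of MYC to the summed level of its 5 repressing counterparts in each library, siRNA libraries in red and controls in blue. Right, the CPM per kilobase of exons of each repressor, stacked; siCIP2A#2 has the highest sum (36.8) and siCIP2A#3 the lowest (28.2).

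Genes around the network were then counted by list. The 8 lists hold 110 tested genes, and edgeR called 0 of them in the comparisons that keep all libraries. At an unadjusted p under 0.05 there were 4 of 110 for the siRNAs against the controls (3.64%, against 2.72% of all genes), and 13 with siCIP2A#1 (11.8%, against 9.95%), 18 with siCIP2A#2 (16.4%, against 11.6%) and 6 with siCIP2A#3 (5.45%, against 8.22%). DESeq2 called 0 for the siRNAs against the controls; over the single siRNAs, their pairs and the non-targeting siRNAs against the mock it called 1, RBBP7 with siCIP2A#2. In the comparison of the 3 siRNA libraries with the controls, 0 of 31 tested MYC-activated targets passed, with 13 above and 18 below 0 and a median of -0.01. Of these, NCL, a nucleolar protein of ribosome production, differed by -0.08, ODC1, the first enzyme of polyamine synthesis, by 0.25, the cell cycle kinase gene CDK4 by -0.07 and CAD, a pyrimidine synthesis enzyme, by -0.03. Of 10 tested MYC-repressed targets 7 stood above 0, with a median of 0.12, CDKN1A at 0.01 and NDRG1, at about 1 CPM, at 0.45. The lowest edgeR adjusted p in either list was 0.999.

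The listed MYC-activated targets stood highest in the 2 libraries with the most MYC RNA. Each gene's log2 CPM was centred on its mean over the 6 libraries. With siCIP2A#3, 26 of the 31 targets stood above their own mean, and 26 did so in the mock. There were 11 with siCIP2A#1, 11 with siCIP2A#2, 8 with SCR#2 and 9 with SCR#3, while 49.6% to 52.9% of all tested genes stood above their own mean in a library. The median deviation of the targets was 0.09 with siCIP2A#3 and 0.13 in the mock, and between -0.07 and -0.03 in the other 4 libraries. The pattern was not particular to the targets. MYC cofactors were also highest in these 2 libraries, at 0.08 and 0.11, though they stood at 0.07 with siCIP2A#2. The network genes, MYC among them, were highest there too, at 0.02 and 0.09. Of the targets named above, NCL stood at -0.20 (siCIP2A#1), -0.08 (siCIP2A#2) and 0.14 (siCIP2A#3), against 0.09 (mock), 0.02 (SCR#2) and 0.03 (SCR#3). CAD stood at -0.22 (siCIP2A#1), 0.0003 (siCIP2A#2) and 0.17 (siCIP2A#3), against 0.18 (mock), -0.03 (SCR#2) and -0.09 (SCR#3). NCL and CAD were thus highest in the same 2 libraries as MYC, whereas ODC1 was highest with siCIP2A#3, at 0.33, and stood at -0.03 in the mock. CCND2, a cyclin gene picked here after its values were seen, was lowest in the mock and highest with siCIP2A#2. It stood at 0.52 (siCIP2A#1), 0.71 (siCIP2A#2) and 0.05 (siCIP2A#3), against -0.64 (mock), -0.19 (SCR#2) and -0.45 (SCR#3). All siRNA libraries thus lay above all controls for CCND2. It was the 1 target of 31 to do so, against 3.26% of all genes, and 0 targets lay below. The pattern of the MYC-activated targets is a description of single libraries and was given no test. The 3 genes whose centred levels lay nearest to MYC among 12096 genes were ZNF71, SMG5 and LDLRAD3, at root mean square distances of 0.0329, 0.0459 and 0.0497 (log2, 6 libraries).

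**Figure D4:**
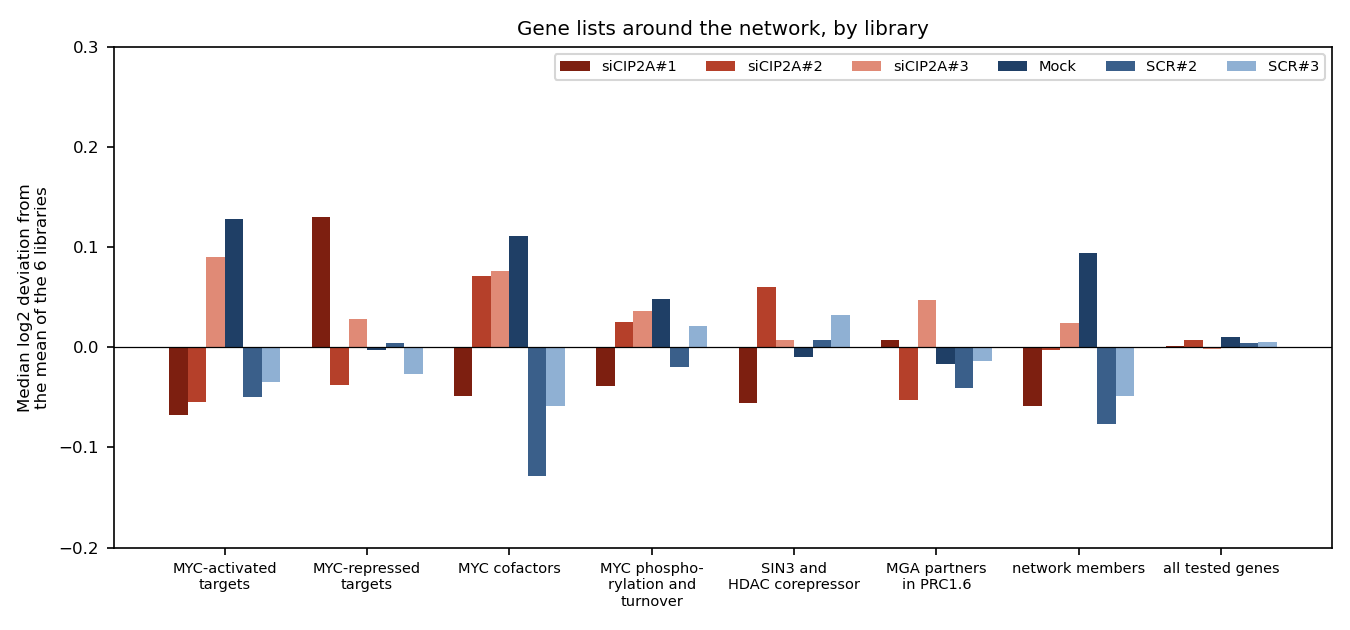
Median log2 deviation of each gene list from the mean of the 6 libraries, by library, with siRNA libraries in red shades left of the controls in blue shades. MYC-activated targets are above 0 with siCIP2A#3 (0.09) and in the mock (0.13) and below 0 in the other 4 libraries, while the median of all tested genes is close to 0 throughout.

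With all controls kept, 0 cofactors of MYC and 0 of the enzymes that act on MYC protein were called. Of 18 cofactors 11 stood above 0 (median 0.04), with the acetyltransferase scaffold gene TRRAP at 0.08 and ZBTB17, the MIZ1 gene, at 0.02. Among 21 genes for MYC phosphorylation and turnover 10 stood above 0 (median -0.01). PPP2R5A, which encodes the PP2A subunit that directs the phosphatase to MYC, stood at 51.8 ± 2.14 CPM with the siRNAs and 56.2 ± 1.22 CPM in the controls (SD, n = 3 each), with a log2 difference of -0.12 (SE 0.09, edgeR adjusted p = 0.999). Its groups did not overlap, as for AURKA, also below, and PIM1, above, both kinase genes named after their values were seen. These are 2 of 21 genes below and 1 of 21 above, against 4.38% and 3.26% of all genes. SET, another PP2A inhibitor, differed by -0.05 and the MYC ubiquitin ligase gene FBXW7 by 0.18. In the SIN3 and histone deacetylase list 9 of 17 genes stood above 0 (median 0.0023), with SIN3A at -0.04 and HDAC1 at 0.03. All siRNA libraries lay below all controls for 2 of these 17 genes, RBBP7 among them, and above for 0, against 4.38% and 3.26% of all genes. RBBP7 stood at 320 (siCIP2A#1), 265 (siCIP2A#2) and 346 (siCIP2A#3) CPM, against 349 to 387 CPM in the controls. In the PRC1.6 list 6 of 11 genes stood above 0 (median 0.05), with PCGF6 at -0.11 and E2F6 at 0.13. PCGF6 stood at 14.7 CPM with siCIP2A#2, against 21.0 to 25.3 CPM in the other 5 libraries, a log2 difference of -0.61 from the controls (edgeR adjusted p = 0.257).

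The lists were also described without the mock, by the median log2 difference of each siRNA from the non-targeting siRNAs. For all genes tested the medians were 0.002 (siCIP2A#1), -0.0051 (siCIP2A#2) and -0.0018 (siCIP2A#3). MYC-activated targets had -0.0085, -0.0011 and 0.19 in the same order of siRNAs, and cofactors had 0.03, 0.18 and 0.13. Phosphorylation and turnover genes had -0.04, 0.04 and 0.07, and SIN3 and histone deacetylase genes -0.05, 0.05 and -0.01. PRC1.6 genes had 0.03, -1e-04 and 0.10, MYC-repressed targets 0.13, -0.02 and 0.05, and the 3 MLXIP targets 0.02, -0.345 and -0.17. The 1 tested paralog differed by -0.34, 0.05 and -0.08. With the mock left out some list genes passed edgeR's test, and calls rose over all genes as well. The controls that remain are the pair closest to each other, and these values are given as a description.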

How the data were processed

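The deposited table holds raw counts of reads for 26485 genes, 1 column per library. The submitters' processing notes name STAR 2.5.4b, Subread 1.5.1, bcl2fastq 2.17 and the build hg38, and the labels' protocols name a stranded TruSeq mRNA kit. Annotation, strand setting and handling of multi-mapping reads: not given in the sources used here. CIP2A is listed under its older symbol KIAA1524.

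From these counts, filterByExpr (minimum count 10) kept 13562 genes, and TMM factors and edgeR 4.0.16 (quasi-likelihood, robust, R 4.3.3) gave differences across all genes with Benjamini-Hochberg adjustment, called under 0.05. Residual degrees of freedom were 4 for siRNAs against controls, 2 with each siRNA as a level and 3 with the mock as a level. DESeq2 1.42.0 and limma-voom (limma 3.58.1) were alternatives, beside RLE and upper quartile factors, other filters, a replicate block and left-out libraries. Log2 CPM had a prior count of 2. Lengths are the union of GENCODE 29 basic exons, and CPM divided by them compares genes. The code was run on simulated counts, in which a changed gene had the same fold in every siRNA library compared. The measured CIP2A siRNAs differ from each other, so that run does not show what the tests can detect here. Libraries of 1 group all differed beyond sampling noise (chi-square per degree of freedom 3.10 to 17.1). Network genes and lists were chosen with earlier results of these data known. Named genes were the 10 members, CIP2A, fixed examples of each list, and the 3 genes nearest to MYC among genes whose mean log2 CPM was 1 or more; CCND2, AURKA, PIM1 and RBBP7 were named after their values were seen, and HK2, PFKFB3 and LDHA as all other MLXIP targets.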

Additional observations from a re-analysis of the deposited data

How the results depend on the processing

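No network gene was called for the 3 siRNAs against the controls under any of the 14 alternatives, nor for a single siRNA except without the mock (0 to 2 genes with siCIP2A#2 and 0 to 1 with siCIP2A#3 over left-out controls). Between siCIP2A#3 and siCIP2A#2, 1 network gene was called with no filter, where 211 genes passed in all. Counts over all genes moved more: siRNAs against controls gave 3 genes with DESeq2, 3 with no filter, 1 with the replicate block and 0 to 1 with a library left out. For siCIP2A#1, siCIP2A#2 and siCIP2A#3 they were 75, 61 and 29 with DESeq2 and 169, 109 and 44 with no filter. With a control left out they ranged from 85 to 1896, 40 to 3088 and 32 to 1330, the highest without the mock. Between siRNAs they were 89 (siCIP2A#2 against siCIP2A#1), 144 (siCIP2A#3 against siCIP2A#1) and 96 (siCIP2A#3 against siCIP2A#2) with DESeq2, 156 and 305 for the first 2 with no filter, and 1 for the first with limma-voom. Non-targeting siRNAs against the mock gave 3 with DESeq2 and 5 with no filter. The cause of these shifts was not tested.

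The replicate numbers of the labels did not pair the libraries (correlations of deviations -0.117, -0.128 and 0.00762, and siCIP2A#2 correlated best with control 1, at 0.163); with the replicate block CIP2A alone was called, at -2.03 (edgeR adjusted p = 0.0345). With the mock as a separate level MAX turned to 0.0298 and MXD1 to -0.0012, and MGA with siCIP2A#1 turned to 0.0076 with upper quartile factors. Over left-out libraries, siRNAs against controls ranged from -0.11 to 0.15 for MYC, -0.10 to 0.0347 for MAX, -0.0485 to 0.11 for MXD1, -0.0467 to 0.35 for MXD3, -0.13 to 0.19 for MXD4, -0.11 to 0.29 for MNT, -0.0419 to 0.12 for MLX and -0.0375 to 0.10 for MLXIP. With siCIP2A#1 the ranges were -0.0217 to 0.12 for MLXIP, -0.0831 to 0.0383 for MNT, -0.0238 to 0.37 for MXD3 and -0.10 to 0.20 for MXD4, and with siCIP2A#2 -0.12 to 0.0165 for MLXIP, -0.26 to 0.13 for MXD3 and -0.13 to 0.0252 for MYC. With the longest coding transcript as length, an alternative chosen after seeing the data like those between siRNAs and against the mock, 2 genes changed rank and the mean ratio of MYC to its repressors in the controls was 1.65. Depth limits MXD3 most, at 102 to 172 counts in a library.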
